A study of Mus musculus with 12 samples.

Results

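The genes described here encode the machinery by which neurons store transmitter in vesicles and release it: synaptotagmins, synapsins, syntaxins, syntaxin-binding proteins, VAMPs, the SNAP-25 family with Snap91, the Rab3 proteins, complexins, SV2 proteins, RIMs and Munc13s. They were chosen by gene symbol, as members of these 11 families and Snap91, at a mean over the libraries of 1 RPKM or more. RPKM stands for reads per kilobase of transcript, scaled to library size. The rule used no measured difference, but it was set with earlier results of these data known. Of 73 matching genes 66 reached 1 RPKM, out of 13273 genes that did so and 23256 genes in the deposited table. Of the 66, 50 had 1 transcript row and 16 had several, of which the row of highest mean was used.

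The study asked whether microRNAs introduced into the zygote leave a mark on the adult hypothalamus. Zygotes of the hybrid strain C57/Bl6:129S6/SvEvTac received either 9 microRNA mimics (miR-204, miR-375, miR-29c, both miR-30a and miR-30c, miR-698, miR-32, miR-532-3p and also miR-193-5p, at 1 ng/uL together and 0.11 ng/uL each) in phosphate-buffered saline or the saline alone, and grew to term in surrogate dams of the CD1 stock. Tissue of the paraventricular nucleus (PVN) was punched from the brains of male offspring aged 18 to 20 weeks with a 1.0 mm needle in 2 adjoining slices of 300 µm, and poly-A RNA (stranded kit, 250 ng of total RNA) was sequenced on 2 HiSeq2000 lanes. There were 6 mimic-injected animals (miR, replicates 1 to 6) and 6 saline-injected animals (PBS, replicates 7 to 12), which the series calls biological replicates. Which of them came from a common litter or dam is not stated in the labels, and a punch holds every cell type of the tissue. In such bulk RNA, fewer cells of a type and less RNA per cell cannot be told apart.

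A synaptic vesicle fuses when a VAMP in its membrane pairs with a syntaxin and SNAP-25 in the plasma membrane to form the SNARE complex. Munc18 proteins, Munc13 and RIM prepare the vesicle for fusion, complexin holds the assembled complex, and synaptotagmin triggers fusion when it binds calcium. In the PVN the same machinery serves fast synapses and the release of large peptide-filled vesicles from neurosecretory neurons.

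The sequences of the injected microRNAs are shown because a 7-base match to the seed (bases 2 to 8, in capitals) is the usual mark of a possible target. The labels name the arm of miR-532-3p, but not that of the others shown, for which the arm usually annotated as the active strand was taken. The mature sequences, 5′ to 3′, are from RefSeq.
miR-29c-3p: uAGCACCAuuugaaaucgguua
miR-30a-5p: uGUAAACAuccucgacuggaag
miR-30c-5p: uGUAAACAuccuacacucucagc
miR-32-5p: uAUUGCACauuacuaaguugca
miR-204-5p: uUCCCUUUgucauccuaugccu
miR-532-3p: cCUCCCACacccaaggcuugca
miR-698-3p: cAUUCUCGuuuccuucccu
The pair miR-30a and miR-30c shares a seed, so these 7 microRNAs hold 6 seeds. The sequences of miR-193-5p and miR-375 were not used here.

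A usable 3′ untranslated region was found for 62 of the 66 genes, and 31 of the 62 (50%) held a match to at least 1 of the 6 seeds, against 44.2% of 12334 genes with such a region. The regions of the vesicle genes were longer, at a median of 1846.5 bases against 1007 bases. The seed of miR-204 was matched most often, in 13 genes (21.0% against 14.9% of all), followed by miR-532-3p in 12 (19.4% against 14.5%). The miR-30 seed was matched in 10 genes (16.1% against 15.1%), that of miR-29c in 9 (14.5% against 13.8%) and that of miR-32 in 6 (9.68% against 7.05%). Unc13a alone matched miR-698 (1.61% against 1.58% of all). Some of the matches are printed here, with the 7 matching bases in capitals, for genes that recur in the results.
Rab3c, miR-32: gccaataaGTGCAATatttaatg
Rab3c, miR-204: attaacatAAAGGGAaagagaga
Stx12, miR-30a and miR-30c: tctgctggTGTTTACagagtcca
Stx2, miR-29c: agcaaactTGGTGCTcactaaac
Unc13a, miR-204: cttgtgatAAAGGGAtgaccctt
Syt3, miR-532-3p: gtttcaggGTGGGAGgtcctcgg
A match of this kind is a description of letters in the untranslated region and was not tested as a site. The median difference between the groups, as log2(RPKM + 0.5) in miR minus that in PBS, was 0.03 in the 31 genes with a match and 0.04 in the 31 without.

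Depth, inferred from the spacing of the lowest values, amounted to 22.8 to 45.1 M reads in the miR libraries and 27.6 to 38.1 M reads for PBS. The neuropeptides that define the PVN were abundant in every library: Oxt lay between 1295 and 3983 RPKM and Avp between 372 and 1564 RPKM in the 12 libraries. Libraries stood apart in 2 ways that bear on the vesicle genes. Meg3, an RNA retained in the nucleus, was high in PBS replicates 8, 9, 10 and 12 (158, 316, 190 and 245 RPKM). It stood at 50.6 and 58.0 RPKM in the other 2 PBS libraries, replicates 7 and 11, and at 49.9 to 68.1 RPKM in miR animals. Markers of thalamic neurons (Tcf7l2, Prkcd, Lef1 and Gbx2, summed) ranged from 7.58 to 63.9 RPKM in miR animals and from 10.2 to 45.0 RPKM in PBS animals. PBS replicate 10 held 19.3 RPKM of Slc17a7, the vesicular glutamate transporter of cortical neurons, which was at 1.29 RPKM or less in the other 11 libraries.

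Of the 66 vesicle genes, 46 (69.7%) had a mean of at least 10 RPKM, against 46.8% of all genes tested. A mean of at least 50 RPKM was reached by 20 (30.3% against 8.42%) and one of at least 100 RPKM by 10 (15.2% against 3.12%). The highest was the plasma membrane SNARE Snap25 (chromosome 2, 136539186 to 136608164, build mm9). Its lowest, median and highest values were 437, 471 and 519.8 RPKM in miR animals and 420.3, 445 and 499 RPKM in PBS animals. The vesicle SNARE Vamp2 (chromosome 11, 68902030 to 68905883) followed, at 318, 340.0 and 375 RPKM in miR animals and 327, 365 and 426 RPKM in PBS animals. The groups overlapped from 437 to 499 RPKM in Snap25 and from 327 to 375 RPKM in Vamp2. The vesicle GTPase Rab3a (chromosome 8, 73278578 to 73282585) had means of 280.4 ± 20.8 RPKM in miR animals and 298 ± 23.5 RPKM in PBS animals (SD, n = 6 each, as for every mean given here). Snap47, a broadly expressed SNAP-25 relative, had means of 229.8 ± 9.42 and 232 ± 17.8 RPKM.

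Snap25, Vamp2, Rab3a and Snap47 kept this order in all 12 libraries. Of the 65 pairs of neighbours in the order of all 66 genes, 9 kept their order in all libraries, and in 2 of them, among which was Syt13 above Stx7, the ranges did not overlap. The order of the other neighbours varied between libraries. The median SD over libraries was 0.14 on the log2 scale for the vesicle genes, against 0.13 for all genes tested.

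**Figure D1:**
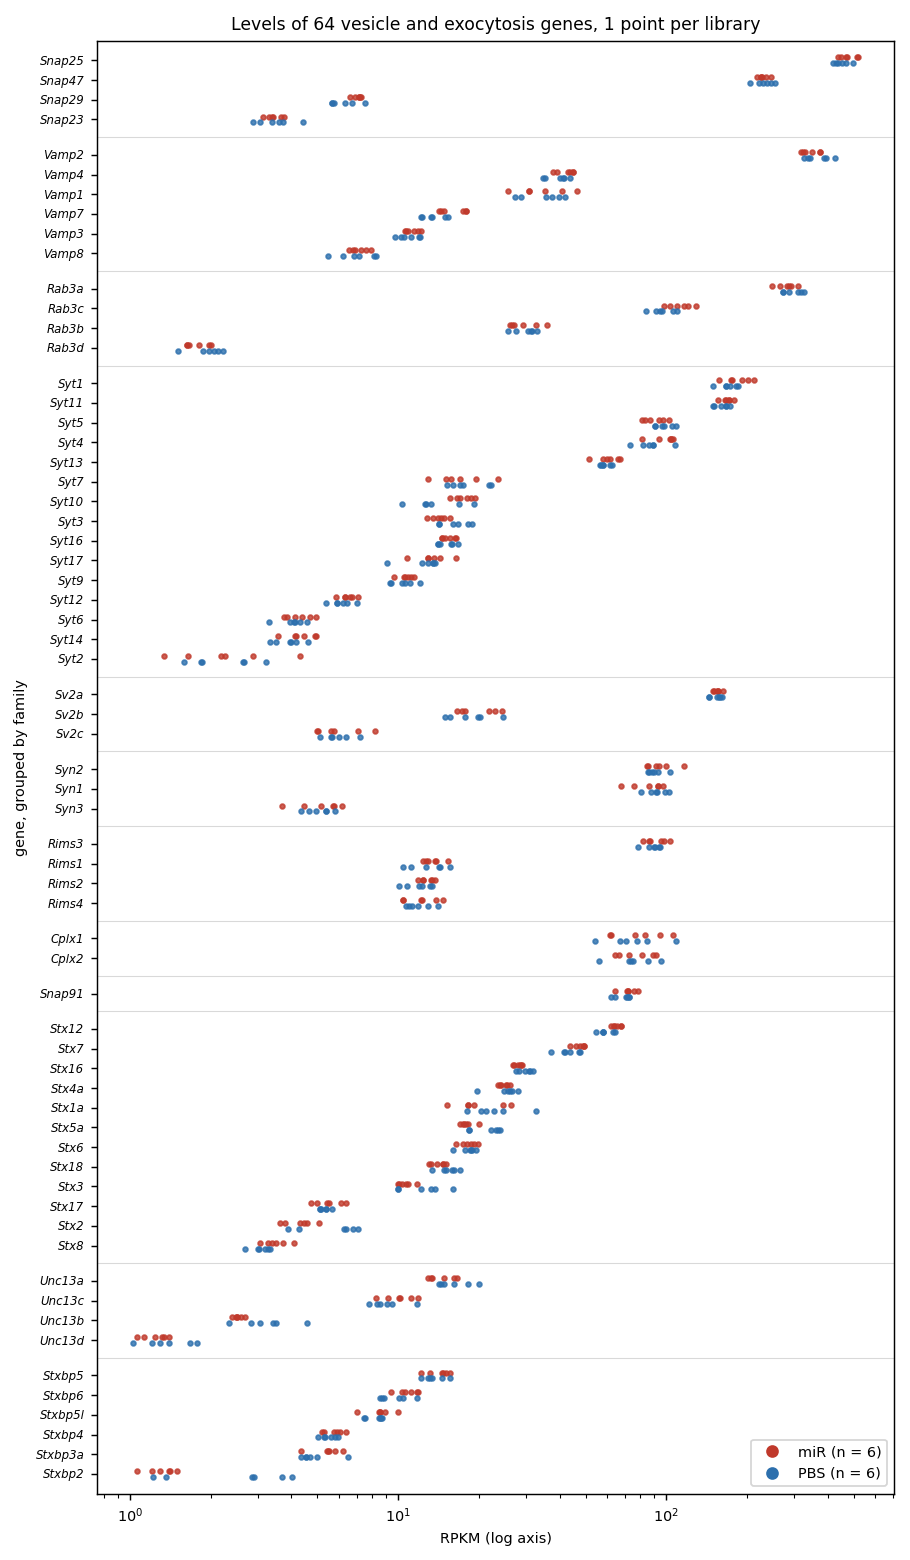
Level of 64 of the 66 genes in RPKM on a log axis, 1 point per library, for miR (red, n = 6) and PBS (blue, n = 6), grouped by family. Snap25 lies highest and Unc13d lowest, and in no gene shown do the groups separate fully.

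Several families were carried by 1 gene. Sv2a made up 85.5 ± 1.21% of the summed SV2 level in miR and 86.1 ± 1.81% in PBS. Vamp2 held 75.5 ± 3.04% and 77.6 ± 2.35% of the VAMPs, and Rims3 70.4 ± 1.85% and 70.7 ± 0.983% of the RIMs. Snap25 held 66.4 ± 1.57% and 65.1 ± 1.246% of its family, and Rab3a 66.1 ± 0.869% and 69.8 ± 2.66% of the Rab3 genes. Other families were divided more evenly. Unc13a held 51.0 ± 4.46% and 53.9 ± 4.20% of the Munc13s, Syn2 held 51.3 ± 1.97% and 48.3 ± 1.65% of the synapsins, and Cplx1 held 50.7 ± 2.65% and 49.998 ± 1.85% of the complexins. Syt1 held 26.2 ± 3.05% and 25.1 ± 1.68% of the synaptotagmins.

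No vesicle gene passed the test between miR and PBS. With limma on log2(RPKM + 0.5), 0 of the 66 genes had an adjusted p under 0.05, as did 0.00% of the 13273 genes tested. The smallest adjusted p among them was 0.174, shared by Stx5a, Stxbp2 and Vamp7. Before adjustment 12 genes had a p under 0.05, 7 higher and 5 lower in miR. This is 18.2% of the genes, against 20.2% of all genes tested, of which 9.12% were higher and 11.1% lower. A higher mean log2 value in miR was found in 43 of the 66 genes, against 52.9% of all genes, and the median difference was 0.04 against 0.01. In no gene did all miR libraries lie above or below all PBS libraries, a separation seen in 0.256% (above) and 0.226% (below) of all genes. The 95% intervals of 64 genes stayed within a 1.5-fold difference in either direction. The intervals of Stxbp2 and Stx2 reached beyond it.

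**Figure D2:**
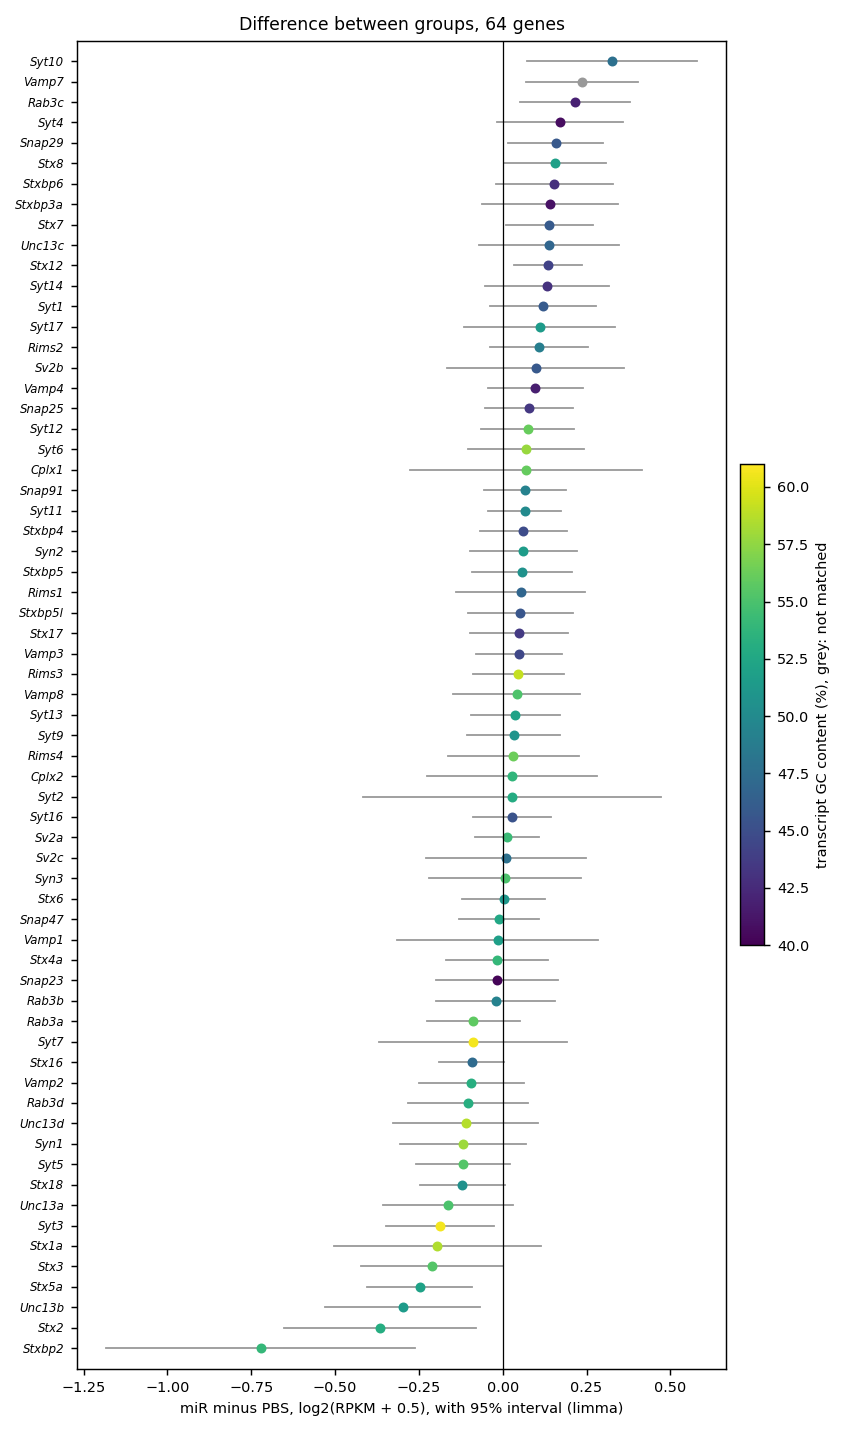
Difference between miR and PBS for 64 of the 66 genes on the log2(RPKM + 0.5) scale, with its 95% interval from limma, coloured by transcript GC content. Stxbp2 at -0.72 and Syt10 at 0.33 mark the ends of the range, and only the intervals of Stxbp2 and Stx2 reach beyond 1.5-fold.

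Of the 13 syntaxins, which serve the plasma membrane or membranes inside the cell, 6 lay higher in miR by their values and 7 lower. Stx1a, a neuronal syntaxin of the release site, varied between animals, at 15.2, 18.7 and 26.3 RPKM (lowest, median, highest) in miR and 18.1, 22.0 and 32.6 RPKM in PBS animals. Its log2 difference was -0.19 with an interval from -0.50 to 0.11. The plasma membrane SNARE Snap25 differed by 0.08 with an interval from -0.05 to 0.21. The widely expressed relative Snap23 measured 3.44 ± 0.227 and 3.51 ± 0.549 RPKM, with a log2 difference of -0.02.

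The other syntaxins lay on both sides. Stx5a, the syntaxin of transport from the endoplasmic reticulum to the Golgi (chromosome 19, 8815914 to 8830132), measured 17.0, 17.8 and 20.1 RPKM in miR animals and 18.4, 22.6 and 24.0 RPKM in PBS animals. The groups overlapped between 18.4 and 20.1 RPKM. The log2 difference was -0.25 with a standard error of 0.07 (limma, adjusted p = 0.174). Stx2, a syntaxin of the plasma membrane in many tissues (chromosome 5, 129490436 to 129514439), measured 3.63, 4.38 and 5.07 RPKM in miR animals and 3.898, 6.32 and 7.11 RPKM in PBS animals, with overlap up to 5.07 RPKM. Its log2 difference was -0.37 with a standard error of 0.13 (limma, adjusted p = 0.187). Stx7, Stx8 and Stx12, which serve endosomes, had higher values in miR. Stx12 measured 65.2 ± 2.29 and 59.4 ± 3.81 RPKM, a difference of 0.14 on the log2 scale, and Stx7 and Stx8 differed by 0.14 and 0.16. The adjusted p-values of these 3 in limma were 0.184, 0.224 and 0.241. Stx16 and Stx18, which act at the Golgi and the endoplasmic reticulum, differed by -0.09 and -0.12, and Stx3, a syntaxin of sensory and epithelial cells, by -0.21. Stx6 differed by 0.0026 and Stx17 by 0.05.

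Of the vesicle SNAREs, 4 of 6 had a higher value in miR. Vamp2 differed by -0.09 with an interval from -0.25 to 0.06. Vamp1, which takes the place of Vamp2 in some neurons, ranged widely in both groups, from 25.7 to 46.6 RPKM in miR animals and from 27.3 to 42.1 RPKM in PBS animals. Its log2 difference was -0.02 with an interval from -0.31 to 0.28. The VAMP of smallest p was Vamp7, which serves fusion with lysosomes and the plasma membrane and which the table places on an unassembled part of chromosome X. It measured 14.2, 16.1 and 17.9 RPKM in miR animals and 12.2, 13.4 and 15.3 RPKM in PBS animals, with overlap between 14.2 and 15.3 RPKM. The log2 difference was 0.24 with a standard error of 0.08 (limma, adjusted p = 0.174). Whether a near-identical copy of Vamp7 shares its reads was not examined, so its level is uncertain. Snap29, the SNAP-25 relative of internal membranes, measured 7.04 ± 0.241 and 6.29 ± 0.730 RPKM, a log2 difference of 0.16 (limma, adjusted p = 0.217). Snap29 overlaps the more abundant gene Pi4ka (42.6 RPKM) by 315 bases on the opposite strand. Since the use of strand in the counting is not given, their reads may not be separate.

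Among the syntaxin-binding proteins, Stxbp2, the Munc18-2 of immune and epithelial secretion (chromosome 8, 3631160 to 3643644), was close to the lower limit of the levels tested. Its values were 1.21, 1.06, 1.40, 1.496, 1.29 and 1.40 RPKM in miR replicates 1 to 6 and 1.22, 2.90, 3.70, 4.02, 1.36 and 2.85 RPKM in PBS replicates 7 to 12. PBS replicates 7 and 11 fell inside the miR range, and the other 4 PBS libraries lay above it. The log2 difference was -0.72 with a standard error of 0.21 (limma, adjusted p = 0.174), the widest difference among the 66 genes. Stxbp3a, Stxbp4, Stxbp5, Stxbp5l and Stxbp6 all had a higher value in miR, with differences from 0.05 to 0.15.

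Synaptotagmins, the calcium sensors and their relatives, were the largest family, and 12 of 15 had a higher value in miR. The sensors of fast release are Syt1 and Syt2. Syt1 (chromosome 10, 107934706 to 108448031) measured 158, 184 and 213 RPKM in miR animals and 149.9, 170.0 and 184 RPKM in PBS animals, a log2 difference of 0.12 with an interval from -0.04 to 0.28. Syt2 ranged from 1.34 to 4.32 RPKM in miR animals and from 1.59 to 3.21 RPKM in PBS animals, with a log2 difference of 0.03 and an interval from -0.42 to 0.47. Syt2 was the gene of widest spread within the groups after Stxbp2. Syt7, the high-affinity sensor of slow release, measured 17.3 ± 3.77 and 18.3 ± 3.00 RPKM, and Syt4, which lacks a full calcium site, 98.7 ± 9.67 and 87.9 ± 11.7 RPKM. Their log2 differences were -0.09 and 0.17. Syt10, a sensor of peptide and growth factor vesicles, measured 15.6, 17.5 and 19.3 RPKM in miR animals and 10.3, 13.0 and 19.2 RPKM in PBS animals. The difference was 0.33 with a standard error of 0.12 (limma, adjusted p = 0.186). Syt3 lay on the lower side at -0.19 (limma, adjusted p = 0.207), with Syt5 at -0.12.

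Both complexins had nearly the same mean in the groups. Cplx1 measured 80.7 ± 17.7 RPKM in miR animals and 77.2 ± 18.6 RPKM in PBS animals, and Cplx2 77.5 ± 11.3 and 76.4 ± 13.3 RPKM. The spread between libraries was large: Cplx1 ran from 61.8 to 106 RPKM in miR animals and from 54.1 to 109 RPKM in PBS animals. The log2 differences were 0.07 (interval -0.28 to 0.41) and 0.03 (interval -0.23 to 0.28).

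Of the priming and active zone proteins, Unc13a, the main Munc13 of the brain, measured 14.5 ± 1.58 RPKM in miR animals and 16.3 ± 2.35 RPKM in PBS animals, a log2 difference of -0.16 with an interval from -0.36 to 0.03. Unc13b, a second Munc13 of synapses and other secretory cells (chromosome 4, 43071945 to 43277759), measured 2.41, 2.51 and 2.68 RPKM in miR animals and 2.34, 3.24 and 4.56 RPKM in PBS animals. The 6 miR values lay close together and within the PBS range. The log2 difference was -0.30 with a standard error of 0.11 (limma, adjusted p = 0.186). All 4 RIMs had a higher value in miR by small amounts, with Rims1 at 0.05 (interval -0.14 to 0.25) and Rims3 at 0.05 (interval -0.09 to 0.18).

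Among the vesicle-attached proteins, Rab3a differed by -0.09 with an interval from -0.23 to 0.05. Rab3c (chromosome 13, 110844396 to 111070414) measured 98.0, 113 and 129 RPKM in miR animals and 83.8, 95.3 and 110.1 RPKM in PBS animals, with overlap between 98.0 and 110.1 RPKM. Its log2 difference was 0.22 with a standard error of 0.08 (limma, adjusted p = 0.184). Sv2a, the vesicle protein bound by the drug levetiracetam, was among the steadiest genes, at 155 ± 4.91 and 154 ± 7.35 RPKM, a log2 difference of 0.01 with an interval from -0.08 to 0.11. Syn1 and Syn2, which tether vesicles in reserve, differed by -0.12 and 0.06. Snap91, the AP180 adaptor of vesicle recovery, differed by 0.07.

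The balance within families was tested for 8 pairs of related genes by a 2-sided exact permutation test over every division of the libraries into 6 and 6, with p-values adjusted over the 8. The ratio of Syn1 to Syn2 was the nearest to a difference. It ran from 0.802 to 1.01 in miR animals and from 0.938 to 1.14 in PBS animals, a log2 difference of -0.18 with an exact permutation p = 0.0152 and an adjusted p of 0.121. Without miR replicate 1 the ratio passed (-0.22, exact permutation, adjusted p = 0.0346). After correction for GC content it was -0.07 (exact permutation, adjusted p = 0.540), and with PBS replicates 8, 9, 10 and 12 left out it was -0.08. Syn2 overlaps Timp4 (17.6 RPKM) and Syn1 overlaps Timp1 (0.121 RPKM) on the opposite strand. For the other ratios reported here the adjusted exact permutation p-values lay between 0.537 and 0.658. The log2 differences were 0.08 for Vamp1 to Vamp2, -0.10 for Snap23 to Snap25 and 0.04 for Cplx1 to Cplx2. They were -0.09 for Sv2a to Sv2b, -0.06 for Rims1 to Rims2 and -0.31 for Unc13a to Unc13c.

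At the lower limit, Stxbp2, Rab3d and Unc13d were the 3 genes just above 1 RPKM, and Vamp5, Cplx3 and Syt15 the 3 just below. Rab3d measured 1.78 ± 0.168 RPKM in miR animals and 1.96 ± 0.253 RPKM in PBS animals, and Unc13d 1.24 ± 0.130 and 1.396 ± 0.282 RPKM. Vamp5 measured 0.806 ± 0.189 and 0.734 ± 0.149 RPKM, Cplx3 0.335 ± 0.0687 and 0.484 ± 0.368 RPKM, and Syt15 0.174 ± 0.0249 and 0.189 ± 0.0193 RPKM. Cplx3 was at 1.18 RPKM in PBS replicate 10, and its medians were 0.335 RPKM in miR animals and 0.345 RPKM in PBS animals. Stx11, Stx19, Cplx4 and Syt8 lay at 0.108 RPKM or less over all libraries.

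Several genes of small p split the PBS libraries as Meg3 did. Stx2 was at 6.26, 7.11, 6.81 and 6.38 RPKM in PBS replicates 8, 9, 10 and 12. It was lower in PBS replicates 7 and 11, at 3.898 and 4.28 RPKM. Stx5a measured 23.1, 22.1, 24.0 and 23.5 RPKM in those 4 libraries and 18.4 RPKM in both of the others. Stx3 measured 13.7, 16.0, 12.2 and 13.3 RPKM against 9.99 and 9.97 RPKM. In each of these 3 genes PBS replicates 7 and 11 lay inside or next to the miR range, which was 3.63 to 5.07 RPKM for Stx2, 17.0 to 20.1 RPKM for Stx5a and 10.02 to 11.8 RPKM for Stx3. Syt10 divided in the opposite direction, at 12.7, 13.3, 12.6 and 10.3 RPKM in replicates 8, 9, 10 and 12 and 19.2 and 16.8 RPKM in replicates 7 and 11. Rab3c measured 91.7, 94.5, 96.1 and 83.8 RPKM in the 4 libraries and 106 and 110.1 RPKM in the other 2. Such a division was not limited to genes of small p. Sv2c, a gene of larger p, measured 5.13 to 6.02 RPKM in the 4 libraries and 6.38 to 7.18 RPKM in the other 2. Snap25 did not divide in this way. How many of the 66 genes or of all genes tested did so was not counted. The part of these libraries in the group differences was not tested apart from the fits that follow.

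**Figure D3:**
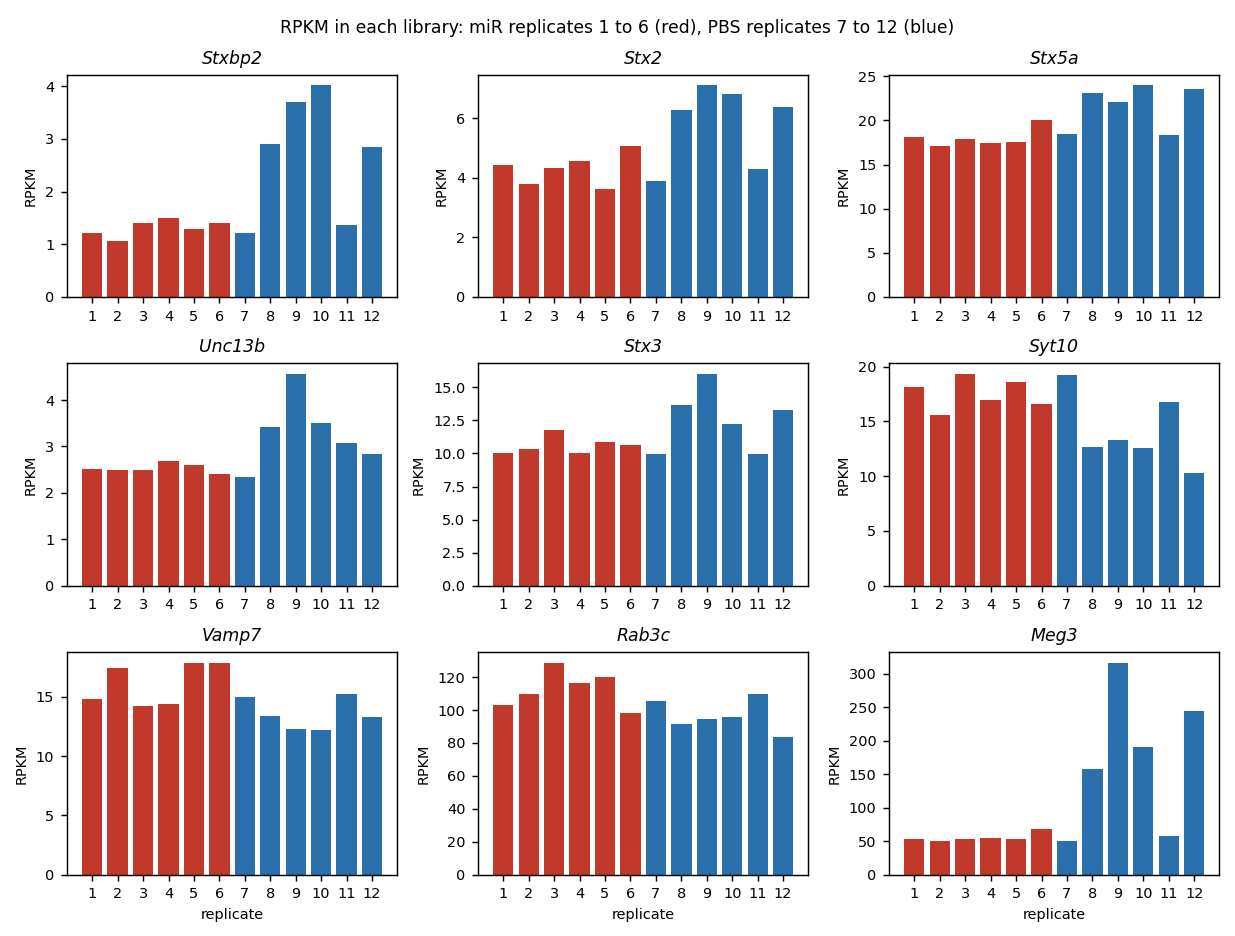
RPKM of 8 vesicle genes and of Meg3 in each library, as bars from 0, with miR replicates 1 to 6 in red and PBS replicates 7 to 12 in blue. Stxbp2, Stx2 and Stx5a are high, and Syt10 and Rab3c low, in PBS replicates 8, 9, 10 and 12, where Meg3 is high.

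Without PBS replicates 7 and 11, the fit called 15 of the 66 genes at an adjusted p under 0.05 in limma, or 22.7%, against 23.4% of all genes tested. Of these, 8 rose in miR, among them Syt10 by 0.51, Vamp7 by 0.31 and Rab3c by 0.30 on the log2 scale, and 7 fell, among them Stxbp2 by 1.09, Stx2 by 0.58 and Unc13b by 0.41. The vesicle genes were thus called about as often as the background, and 20 of them had an unadjusted p under 0.05 (30.3% against 37.6% of all genes). Both libraries left out are the PBS libraries that lay near miR in Meg3 and in the genes above, so this count is no independent support for a difference. Without PBS replicate 7 alone limma called 6 of the 66 genes, against 909 of the 13273 genes tested (6.85%). The 6 were Stxbp2, Syt10, Stx5a, Unc13b, Stx2 and Snap29. Without PBS replicate 11 alone it called 2 of the 66 genes, Stx5a and Stxbp2, against 429 of the 13273 genes tested (3.23%). Array weights, which give less weight to a library far from its group, called 13 of the 66 genes, against 3025 of the 13273 genes tested (22.8%). With them, 22 vesicle genes had an unadjusted p under 0.05 (33.3% against 38.2%). The lowest weights fell on PBS replicates 7, 9 and 11 (0.41, 0.45 and 0.46), so these calls are no independent support either.

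With PBS replicates 8, 9, 10 and 12 left out instead, 0 genes passed in limma and 2 had an unadjusted p under 0.05, or 3.03%, against 0.746% of all genes. The log2 difference of Stxbp2 was then 0.01, that of Stx2 0.06, that of Stx5a -0.03, that of Syt10 -0.04 and that of Rab3c 0.06. This fit rests on only 2 PBS animals. With a score of 6 nuclear-retained RNAs as a covariate, 0 genes passed in limma and 1 had an unadjusted p under 0.05 (1.52% against 0.844% of all genes), and the median difference of the 66 genes was -0.003. Stxbp2 differed by -0.03 in that fit and Rab3c by 0.06. The score itself followed the group: it ran from -0.86 to -0.37 in miR animals. In PBS replicates 8, 9, 10 and 12 it was 0.84, 1.80, 0.99 and 1.39, and in PBS replicates 7 and 11 -0.71 and -0.44. All 6 of its RNAs were lower in miR at an unadjusted p under 0.05 in limma. This fit therefore cannot separate the score from the group, and smaller differences in it were to be foreseen.

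The differences between the groups also ran with base composition. Across the 65 genes with a matched transcript, the Spearman correlation of the log2 difference with GC content was -0.59, and it was -0.64 across 13004 genes. These are descriptions across genes that share the same libraries. Of the 21 genes of lowest GC content (40.2% to 47.3%), 19 lay higher in miR, at a median difference of 0.10, and of the 21 of highest GC content (53.4% to 60.7%), 10 did so, at a median of -0.02. After each library was corrected for its trend with GC content, the correlation across the vesicle genes was 0.13. The difference of Rab3c, with 41.9% GC, went from 0.22 to 0.10 and that of Syt3, with 60.7% GC, from -0.19 to -0.04. Stxbp2, Stx2 and Unc13b, with 54.0%, 53.0% and 51.5% GC, were at -0.67, -0.34 and -0.30 after it. Vamp7 has no GC value here and was left uncorrected at 0.24. No gene passed in limma after this correction, with adjusted p-values of 0.294 or more.

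**Figure D4:**
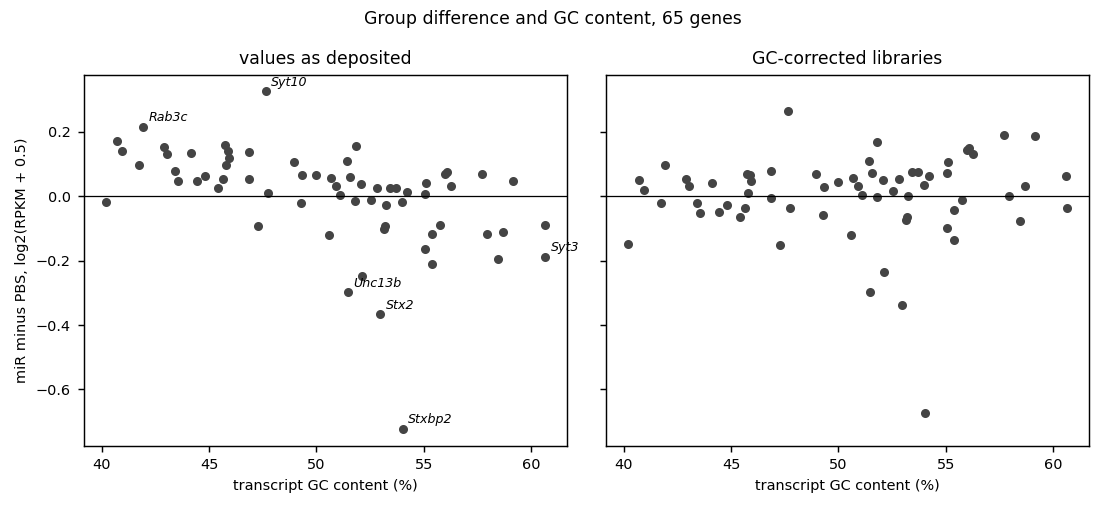
Difference between miR and PBS of 65 vesicle genes against the GC content of their transcripts, for the deposited values (left) and for GC-corrected libraries (right), 1 point per gene. The Spearman correlation was -0.59 on the left and 0.13 on the right.

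Some vesicle genes followed the level of the thalamic markers. A fit of each gene in limma on a score of the 4 thalamic markers (the mean of their standardised values), with the group as a second term, called 7 of the 66 genes, or 10.6%, against 2.27% of all genes tested (1.76% with a positive and 0.505% with a negative slope). This fit was added after the data had been seen. Of the 7, 4 rose with the score and 3 fell with it, and the slope is the log2 change per unit of the score.

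Syt7 had the smallest p. It measured 15.0, 15.7, 23.6, 19.5, 17.0 and 13.0 RPKM in miR replicates 1 to 6 and 17.5, 17.0, 21.8, 22.3, 15.3 and 16.0 RPKM in PBS replicates 7 to 12. Its slope was 0.26 with a standard error of 0.04 (limma, adjusted p = 0.00133). The libraries highest in Syt7 were miR replicates 3 and 4 and PBS replicates 9 and 10, in which Tcf7l2 measured 40.2, 28.5, 28.1 and 22.5 RPKM. Tcf7l2 was lowest in miR replicate 6 at 2.53 RPKM and in PBS replicate 12 at 4.19 RPKM. Sv2b, the SV2 form of many glutamatergic neurons, had a slope of 0.24 (limma, adjusted p = 0.00212), and measured 24.3 and 22.9 RPKM in miR replicates 3 and 4 against 16.6 RPKM in miR replicate 6. Stx1a had a slope of 0.25 (limma, adjusted p = 0.0251) and the active zone gene Rims1 one of 0.16 (limma, adjusted p = 0.0242).

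The complexins ran the other way. Cplx1 measured 76.5, 106, 61.8, 62.2, 83.0 and 94.8 RPKM in miR animals and 70.8, 84.8, 54.1, 77.8, 67.0 and 109 RPKM in PBS animals, with its highest values in libraries of low Tcf7l2. Its slope was -0.30 with a standard error of 0.05 (limma, adjusted p = 0.00891), and that of Cplx2 was -0.23 with a standard error of 0.03 (limma, adjusted p = 0.00212). Syn3, which overlaps the abundant gene Timp3 (43.3 RPKM) on the opposite strand, had a slope of -0.18 (limma, adjusted p = 0.0242). Whether strand was used in the counting is not given in the sources used here, so the reads of Syn3 and Timp3 may not be separate. With 1 library left out at a time the number of vesicle genes called ran from 4 to 8, against 187 to 327 of the 13273 genes tested. Without miR replicate 4 it was 4 (Cplx1, Cplx2, Sv2b and Syt7), against 187 of all genes. These 4 genes were called whichever library was left out. With the GC-corrected libraries limma called 10 of the 66 genes, against 3.56% of all genes, and 8 of them rose with the score. Rab3c, Snap91, Unc13a and Rims2 were then called and Syn3 was not. The part of thalamic tissue in these levels was not tested.

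**Figure D5:**
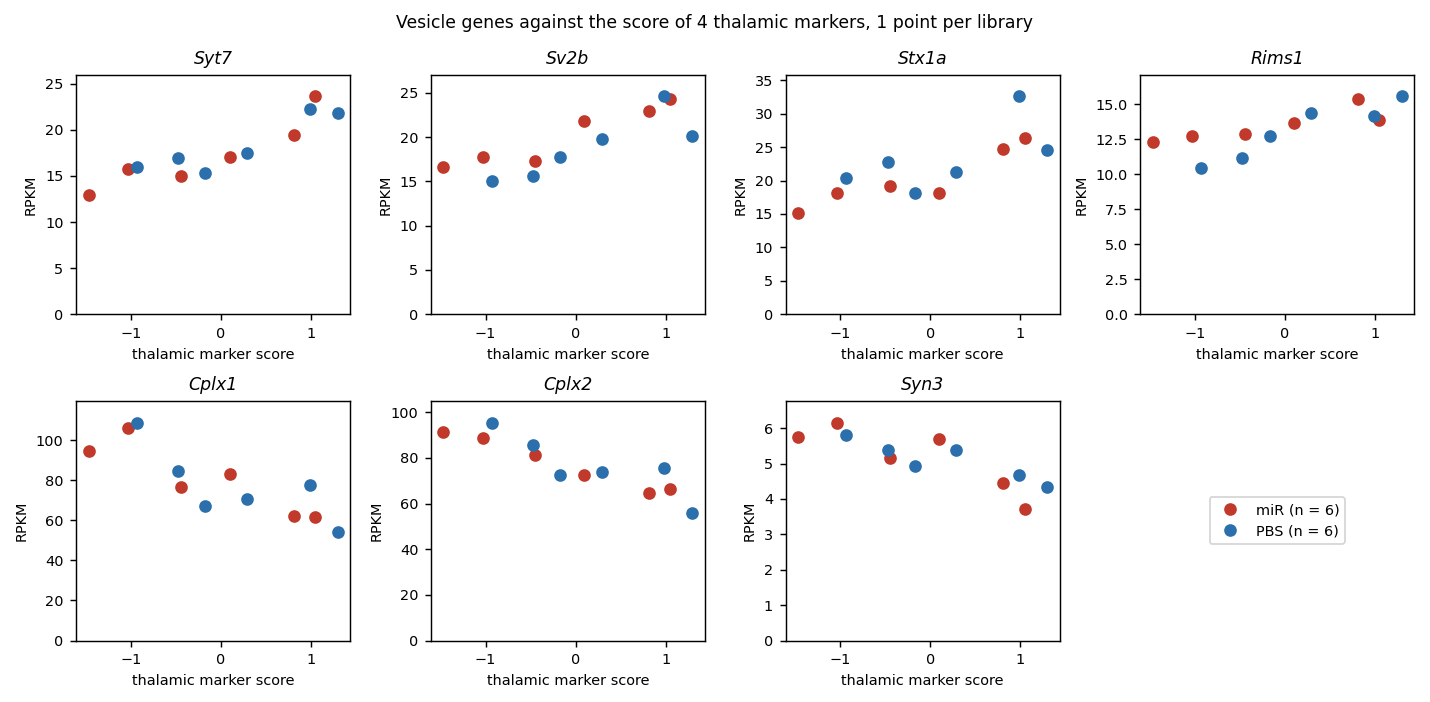
RPKM of the 7 vesicle genes that passed the fit on the thalamic marker score, against that score, 1 point per library, for miR (red, n = 6) and PBS (blue, n = 6), with the vertical axes starting at 0. Syt7, Sv2b, Stx1a and Rims1 rise with the score and Cplx1, Cplx2 and Syn3 fall.

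The neighbouring steps of the vesicle cycle gave a like picture, with 0 genes called in limma between miR and PBS in each of 5 lists, as among all genes. The counts at an unadjusted p under 0.05 that follow are to be read against the 20.2% of all genes tested. Of 16 genes of SNARE disassembly and priming, 11 lay higher in miR by their values and 5 lower, and 2 (12.5%) had an unadjusted p under 0.05, both higher. These were Napb, the brain form of the SNARE disassembly adaptor SNAP, at 107 ± 7.07 RPKM in miR animals and 93.6 ± 7.24 RPKM in PBS animals, and the priming factor Cadps, at 50.9 ± 3.47 and 46.6 ± 2.63 RPKM. Of 14 active zone scaffold genes, 6 were higher and 8 lower in value, and 3 on each side (42.9% in all) had an unadjusted p under 0.05. The 2 of smallest p were Lin7b, with a log2 difference of -0.26, and Erc2, with 0.18. Of 20 genes of vesicle membrane proteins and transporters, 10 lay on each side, and 3 (15%), all higher, had an unadjusted p under 0.05. Atp6v1a, a subunit of the proton pump that energises transmitter loading, measured 131 ± 4.34 and 118 ± 10.2 RPKM, and the membrane protein gene Scamp1 77.1 ± 4.89 and 69.7 ± 6.33 RPKM.

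Of 21 endocytosis genes, 9 were higher and 12 lower in value, with 2 and 3 at an unadjusted p under 0.05 (23.8% in all, against the same 20.2%). The endophilin gene Sh3gl1 measured 9.10 ± 0.643 RPKM in miR animals and 11.8 ± 2.08 RPKM in PBS animals, and the dynamin gene Dnm2, which cuts vesicles from the membrane, 11.5 ± 0.747 and 12.9 ± 0.8001 RPKM. Of 10 calcium channel genes of the release site, 3 were higher and 7 lower, and 2 of the lower ones (20% of the list) had an unadjusted p under 0.05. These were Cacnb1 at -0.17 and Cacna1a, the P/Q-type channel of fast synapses, at -0.19. With the thalamic score, limma called Slc17a6, the vesicular glutamate transporter of thalamic and hypothalamic neurons, with a slope of 0.397 (adjusted p = 0.00266), and Slc18a2, the vesicular monoamine transporter, with a slope of -0.398 (adjusted p = 0.00864). Sh3gl2, a neuronal endophilin, had a slope of 0.129 (limma, adjusted p = 0.0174). No other gene of the 5 lists was called with this score.

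Marker lists of other cell types gave 0 calls in limma between miR and PBS. All 6 astrocyte and all 6 oligodendrocyte markers had a higher value in miR and all 5 endothelial markers a lower one, against 52.9% higher among all genes. Of PVN neuron markers 5 of 8 lay higher, and of microglial markers 4 of 6. An unadjusted p under 0.05 in limma was found for 4 astrocyte (66.7%), 0 oligodendrocyte, 2 endothelial (40%), 0 PVN neuron and 1 microglial marker (16.7%), against 20.2% of all genes. The summed astrocyte markers ranged from 845 to 993 RPKM in miR animals and from 711 to 897 RPKM in PBS animals. The summed neuronal markers ranged from 512 to 678 RPKM in miR animals and from 579 to 670.02 RPKM in PBS animals, with 1 of 5 higher in value. Of 4 choroid plexus markers, Ttr and Kcnj13 lay below a mean of 1 RPKM, with Ttr at 0.676 RPKM or less in every library. The other 2, Folr1 and Clic6, lay above it. Their sum ranged from 6.27 to 8.21 RPKM in miR animals and from 5.82 to 8.61 RPKM in PBS animals. The part of these cell types in the levels of the vesicle genes was not tested.

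In promoters, taken from RefSeq (build GRCm38.p6) as 250 bases before to 50 bases after a gene's start, 49 of the 66 genes were matched. Motifs were searched on both strands. The GC box GGGCGGG was present in 29 of the 49 (59.2%), against 52.4% of the promoters of genes tested. The cAMP response element TGACGTCA was found in Syn1 alone (2.04% against 3.58%), and its shorter form TGACG, which it contains, in 14 genes (28.6% against 35.3%). The E-box CACGTG was found in 7 genes (14.3% against 11.9%), among them Stxbp2 and Unc13b, and TATAAA in 4 (8.16% against 8.58%). A match or its absence in this window says nothing about binding.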

How the data were processed

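RNA of 12 PVN punches was measured by single-end stranded poly-A sequencing. The authors deposited RPKM values in a single table of 30399 transcript rows, with a column per animal. Per the submitters' processing notes, build mm9 and edgeR were used, with no role stated. For the aligner, the counter and the use of strand, nothing was given in the sources used here. Coordinates are those of the table, read as 1-based.

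Each gene was represented by its row of highest mean, and 2 Syt1 rows named only through an accession were left out. Read counts were not recovered for long transcripts, so no count model was used. Values were analysed as log2(RPKM + 0.5), which understates changes of low genes, with limma 3.58.1 in R 4.3.3 (variance trend, 2-sided, Benjamini-Hochberg over 13273 genes, threshold 0.05). The script was tested on simulated data. The p-values measure the spread between these animals, whose litters are not given.

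Genes named are 19 core members, the 8 of smallest p in each direction, the leading gene of each family, the 3 on each side of 1 RPKM and the 2 of smallest p in each other list; others were named after their values were seen, and some are not reported here. The members and lists were chosen with earlier results of these data known.

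Alternatives were other pseudocounts (0.1 and 1 RPKM), filters on low values (none, or a mean of 5 RPKM), median and quantile scaling, a GC correction in 20 bins (GENCODE M21 transcripts), a nuclear RNA covariate, array weights, the mean over rows and libraries left out. The fits with the thalamic score were added after the data had been seen. Seeds were searched in 3′ untranslated regions of GENCODE M21. Overlap with other genes was found for 8 of the 66 genes: Rab3a, Rab3b, Snap29, Syn1, Syn2, Syn3, Syt1 and Syt12. Stxbp3a has a near-identical copy, so its level is uncertain. Tables were made in Python 3.11.15 with pandas 2.3.3 and matplotlib 3.10.9.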

Additional observations from a re-analysis of the deposited data

Results flagged for a closer look

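Stx5a measured 20.1 RPKM in miR replicate 6, against 17.0 to 18.2 RPKM in the other 5 miR libraries. The gap to the nearest library was 0.631 of the range of the group, above the critical value of 0.625 for 6 samples (Dixon's test). Of 72 groups examined for the named genes this was the only such value, where about 3.6 would be found by chance at 1 in 20. The library also had the highest Meg3 of the miR group, at 68.1 RPKM, and the part of that in the value was not tested.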

How the results depend on the processing

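No vesicle gene passed in the fit reported, so what could change was the number of calls and the sign of small differences. Array weights gave 3025 genes of all tested past the threshold in limma, 13 of them vesicle genes, and 22 vesicle genes at an unadjusted p under 0.05 (33.3% against 38.2% of all genes). Without PBS replicates 7 and 11 these numbers were 3107, 15 and 20 (30.3% against 37.6%). With PBS replicates 8, 9, 10 and 12 left out 2 vesicle genes had an unadjusted p under 0.05, and with the nuclear RNA covariate 1, at a median difference of -0.0026. With 1 library left out at a time, limma called 0 to 909 genes in all and 0 to 6 vesicle genes, with 8 to 17 at an unadjusted p under 0.05 (12.1% to 25.8%, against 13.1% to 28.4% of all genes) and a median difference of 0.01 to 0.05. The number of vesicle genes called with the thalamic score was 4 to 8 with 1 library left out, against 187 to 327 of all genes tested. With the GC correction it was 10, against 3.56% of all genes.

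Among the vesicle gene differences and ratios reported, none that changed sign in an alternative passed in the fit reported or in that alternative. Several of these genes did pass in other fits, such as Stxbp2, Stx2 and Syt10 without PBS replicates 7 and 11. The cause of the sign changes was not tested. Genes that were only counted are not listed. On the log2 scale, leaving out PBS replicates 8, 9, 10 and 12 gave 0.00096 in Rab3a, 0.034 in Rab3d, -0.0058 in Rims1, -0.015 in Rims3, -0.014 in Snap29, 0.0041 in Stx16, 0.023 in Stx1a, 0.058 in Stx2, 0.084 in Stx3, 0.013 in Stxbp2, -0.036 in Syt10, -0.083 in Syt2, 0.0023 in Syt3, -0.00055 in Syt4, 0.055 in Syt7, 0.034 in Unc13d, 0.021 in Vamp1, 0.040 in Vamp2, -0.019 in the ratio of Vamp1 to Vamp2. The nuclear RNA covariate gave 0.027 in Rab3d, -0.00076 in Rims3, -0.020 in Snap29, 0.0096 in Stx16, 0.069 in Stx2, 0.097 in Stx3, -0.015 in Stx7, -0.010 in Syt10, -0.19 in Syt2, -0.0038 in Syt4, 0.037 in Syt7, 0.014 in Unc13a, 0.047 in Unc13d. The GC correction gave -0.0059 in Rims1, -0.022 in Snap25, 0.0013 in Syn1, 0.062 in Syt7, 0.031 in Unc13d, 0.054 in the ratio of Sv2a to Sv2b. Array weights gave -0.071 in Cplx1, -0.048 in Cplx2, 0.073 in Snap23, -0.0065 in Sv2a, -0.021 in Syt2, the thalamic covariate -0.029 in Cplx1, -0.049 in Cplx2, 0.0016 in Snap23, -0.069 in Syt2, and the fit without PBS replicates 7 and 11 0.016 in Snap23, -0.0011 in the ratio of Cplx1 to Cplx2. Median scaling gave 0.0010 in Vamp1 and quantile normalization 0.0075 in Snap23. In Stx6, Stxbp3a, Stxbp5 and Stxbp5l, leaving out PBS replicates 8, 9, 10 and 12 gave -0.043, -0.061, -0.0047 and -0.0063. The nuclear RNA covariate gave -0.047 in Stx6, -0.046 in Stxbp3a and -0.00056 in Stxbp5l. The GC correction gave -0.052 in Stx17, -0.028 in Stxbp4 and -0.036 in Stxbp5l, and the thalamic covariate -0.0011 in Stx6.

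With 1 library left out at a time the differences that changed sign ran from -0.026 to 0.17 for Cplx1, -0.058 to 0.094 for Cplx2, -0.0060 to 0.11 for Rims1, -0.065 to 0.043 for Snap23, -0.034 to 0.032 for Stx6, -0.0057 to 0.027 for Sv2a, -0.13 to 0.15 for Syt2, -0.10 to 0.067 for Vamp1, -0.0059 to 0.19 for the ratio of Vamp1 to Vamp2, -0.000466 to 0.080 for the ratio of Cplx1 to Cplx2. The ratio of Syn1 to Syn2 passed without miR replicate 1 (-0.22, exact permutation, adjusted p = 0.0346) and was -0.072 after the GC correction and -0.083 with PBS replicates 8, 9, 10 and 12 left out. Pseudocounts of 0.1 and 1 RPKM, the mean over a gene's rows and other filters on low values changed no sign and left 0 calls.

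No paired analysis was possible because the replicate numbers of miR (1 to 6) and PBS (7 to 12) are not shared and nothing in the labels pairs the animals. Depth was restored only from the lowest values, so counting error per gene was not modelled, and the least abundant genes (Stxbp2, Rab3d and Unc13d) rested on a median of 132, 226 and 159 reads per library. With 6 animals a group, the 95% interval of the median vesicle gene reached 0.16 to either side of its log2 difference.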

Other observations

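Vamp1 and Syt2, the vesicle SNARE and the calcium sensor of neurons that fire fast, varied widely between animals of both groups, and their levels are given side by side here because they were picked after their values had been seen. Vamp1 measured 30.8, 46.6, 25.7, 30.7, 40.9 and 35.3 RPKM in miR replicates 1 to 6 and 39.8, 37.4, 27.3, 35.5, 28.7 and 42.1 RPKM in PBS replicates 7 to 12. Syt2 measured 2.18, 4.32, 1.34, 1.65, 2.87 and 2.26 RPKM and 3.21, 2.64, 1.59, 1.83, 1.86 and 2.67 RPKM in the same libraries. Both genes were highest in miR replicate 2 and lowest in miR replicate 3, and in PBS both were lowest in replicate 9. The highest PBS value was in replicate 12 for Vamp1 and in replicate 7 for Syt2. The thalamic score was highest in miR replicate 3 (1.05) and PBS replicate 9 (1.30) of their groups. Neither gene passed the fit on that score, with slopes of -0.18 and -0.29 (limma, adjusted p = 0.244 and 0.179). The cause of this variation was not tested.

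Stx1a was highest in PBS replicate 10, at 32.6 RPKM against 26.3 RPKM or less in the other 11 libraries. The same library held 19.3 RPKM of Slc17a7. Its thalamic score was 0.99, and Stx1a rose with that score (slope 0.25, limma, adjusted p = 0.0251). The part of either in the level of Stx1a was not tested.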
